A study of Mus musculus with 2 samples.

Results

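The 6 genes described here are S100a8, S100a9, S100a4, S100a6, S100a10 and S100a11, taken by symbol from the 31053 genes of the deposited single-cell count matrix. RNA was counted in progenitors of mouse bone marrow, sorted for c-Kit and against lineage markers and Sca1 (LKS- in the sample titles). There was 1 library labelled Runx1 KO, with 7889 cells, called KO-labelled from here on, and 1 Control library, with 6906 cells. Both came from hind limb marrow of C57BL/6 mice and were made with the 10x Genomics 3′ kit. For Control, marrow of 1 Runx1f/f mouse and 1 Runx1f/- mouse was pooled, so part of its cells carried a germline mutation in 1 Runx1 allele. The sources used here do not give the number of KO-labelled mice, the driver of the deletion or any ages. With 1 library per genotype, no test between genotypes was possible and no p-value is given.

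S100 proteins are small calcium-binding proteins of the EF-hand type that mostly work as dimers and act by binding other proteins. S100a8 and S100a9 pair to form calprotectin, which fills the cytoplasm of neutrophils, withholds zinc and manganese from microbes and, once released, can act on Toll-like receptor 4 and RAGE. S100a4 binds non-muscle myosin, S100a6 binds Cacybp and annexins, S100a10 is the partner of annexin A2 and does not need calcium to bind it, and S100a11 binds annexin A1.

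Levels are given as CPM, the unique molecular identifiers (UMIs, each 1 captured RNA 3′ end) of a gene per 1000000 UMIs of the same cells. UMIs were added up within each class, a cell group that the authors named by a gene, and 95% intervals around CPM, shares and ratios cover counting error only. KO-labelled cells held 145590840 UMIs in all (median 16092 per cell) and Control cells 162278272 (median 21593.5). Of the 18 classes, 10 had at least 50 cells in each library and were compared. Runx1 itself was at 361 CPM in KO-labelled cells and 143 CPM in Control cells. That goes against the direction of a knockout label, although 3′ reads outside a deleted part check nothing, and the sources used here do not name the deleted part. Every direction below rests on that label.

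All 6 genes lie on mouse chromosome 3 of GRCm38 in 2 stretches. S100a4 (ENSMUSG00000001020, chr3:90603771-90606045), S100a6 (ENSMUSG00000001025, chr3:90612882-90624181) and S100a8 (ENSMUSG00000056054, chr3:90668978-90670035) are on the plus strand. S100a9 (ENSMUSG00000056071, chr3:90692632-90695721) follows on the minus strand. S100a11 (ENSMUSG00000027907, chr3:93520488-93526287) and S100a10 (ENSMUSG00000041959, chr3:93555080-93564643) neighbour each other on the plus strand of the other stretch. S100a4 overlaps Gm42674 on the same strand, and Gm42674 had 0 UMIs in both libraries.

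Since the study concerns a Runx factor, the promoters of the 3 members with the highest whole-library ratios between the libraries are shown. Each runs 5′ to 3′ from 250 bases before to 50 bases after the gene's start (RefSeq, GRCm38.p6). Capitals mark the hexamer TGTGGT, the core bound by RUNX proteins, or its reverse complement ACCACA.
S100a8 promoter, chr3:90668821-90669120, plus strand: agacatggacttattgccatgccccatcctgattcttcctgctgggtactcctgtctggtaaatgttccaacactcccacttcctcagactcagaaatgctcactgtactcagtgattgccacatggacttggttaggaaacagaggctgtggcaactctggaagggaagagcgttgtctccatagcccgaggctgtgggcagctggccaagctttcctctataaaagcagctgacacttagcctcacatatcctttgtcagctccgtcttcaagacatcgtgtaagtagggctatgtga
S100a9 promoter, chr3:90695672-90695971, minus strand: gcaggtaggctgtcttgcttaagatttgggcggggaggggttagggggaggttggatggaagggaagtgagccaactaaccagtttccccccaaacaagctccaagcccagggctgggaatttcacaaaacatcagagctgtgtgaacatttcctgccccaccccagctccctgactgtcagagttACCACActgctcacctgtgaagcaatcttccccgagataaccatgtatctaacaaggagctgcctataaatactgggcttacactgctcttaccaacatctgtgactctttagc
S100a6 promoter, chr3:90612644-90612943, plus strand: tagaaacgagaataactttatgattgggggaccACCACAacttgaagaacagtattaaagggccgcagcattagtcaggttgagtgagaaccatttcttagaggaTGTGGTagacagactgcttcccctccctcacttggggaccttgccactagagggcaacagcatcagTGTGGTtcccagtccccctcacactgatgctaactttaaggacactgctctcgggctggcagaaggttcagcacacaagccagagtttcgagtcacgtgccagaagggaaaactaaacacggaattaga
The S100a8 window held no match, the S100a9 window held 1 match 64 bases before the start, and the S100a6 window held 3, at 217, 145 and 79 bases before the start. The S100a4 and S100a11 windows held 0. Of all 32851 windows of 300 bases, 16.8% held at least 1 match and 0.183% held 3 or more. A match describes the letters only, and binding in these cells was not measured.

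Over all cells, S100a8, S100a9 and S100a6 were higher in KO-labelled cells, while S100a10 and S100a11 were somewhat lower. S100a8 was at 2178.8 CPM in KO-labelled and 597 CPM in Control cells, a ratio of 3.65 (95% interval 3.63 to 3.68). S100a9 was at 2630.6 CPM in KO-labelled and 639 CPM in Control cells, a ratio of 4.12 (4.09 to 4.14). S100a6 was at 90.2 CPM in KO-labelled and 20.8 CPM in Control cells, a ratio of 4.35 (4.18 to 4.51). These 3 differ several-fold between the libraries. S100a10 was at 245 CPM in KO-labelled and 323 CPM in Control cells (ratio 0.759, 0.748 to 0.769), and S100a11 at 167 CPM in KO-labelled and 199.8 CPM in Control cells (ratio 0.833, 0.820 to 0.847). S100a4 was low, with 7.26 CPM in KO-labelled and 5.54 CPM in Control cells. A gene counted as measured when its higher level reached 30 CPM and both libraries together held 100 UMIs. It counted as past the fold when its ratio, after adding 10 CPM to each level, exceeded 1.5-fold in either direction. Of the 5 members measured over all cells, 3 were past the fold upward and 0 downward. Of these, S100a6 reached 30 CPM in the KO-labelled library alone, so its direction was fixed by the rule for measured genes. Of 4600 genes measured the same way, 4.28% were past it upward and 1.65% downward, and their median log2 ratio was 0.00 beside 1.70 for the 5 members. The 1.70 is the value of S100a6 itself.

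Most S100a8 and S100a9 UMIs came from the small Ltf class. This class, named by lactoferrin, a protein of neutrophil secondary granules, had 221 KO-labelled cells (2.80% of the library) and 50 Control cells (0.724%). The sort was set against lineage markers, so these shares count cells that passed the gate and not cells of the marrow. The Ltf class held 94.0% of S100a8 UMIs in the KO-labelled library and 90.2% in Control, and 95.8% of S100a9 UMIs in the KO-labelled library and 91.5% in Control. Within the class both genes had similar levels in the 2 libraries. S100a8 was at 118945.2 CPM in KO-labelled and 126628.1 CPM in Control Ltf cells (ratio 0.939, 0.932 to 0.946). S100a9 was at 146412.8 CPM in KO-labelled and 137546.0 CPM in Control Ltf cells (ratio 1.06, 1.06 to 1.07). The calprotectin pair made up 26.5% of all UMIs in KO-labelled and 26.4% in Control Ltf cells. A median KO-labelled Ltf cell held 1333 S100a8 and 1580 S100a9 UMIs of 9352 in all, against 1637.5 S100a8 and 1818.5 S100a9 UMIs of 11545 in all for a median Control Ltf cell. The 9 late neutrophil markers, Ltf, Camp and Ngp among them, summed to 112018.6 CPM in KO-labelled and 111858.0 CPM in Control Ltf cells. Single markers behind this sum went both ways. Ngp was at 19281.4 CPM in KO-labelled and 27975.0 CPM in Control Ltf cells (ratio 0.689), and Lcn2 at 14514.2 CPM in KO-labelled and 11786.0 CPM in Control Ltf cells (ratio 1.23). Ltf itself was found in 64.7% of KO-labelled and 78.0% of Control cells of the class.

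Leaving out the Ltf class lowered the whole-library ratios of the pair by more than 1.5-fold. S100a8 was then at 133 CPM in KO-labelled and 58.5 CPM in Control cells (ratio 2.28, 2.22 to 2.34). S100a9 was then at 112 CPM in KO-labelled and 54.6 CPM in Control cells (ratio 2.05, 2.00 to 2.11). Where every compared class had the same weight, the log2 ratio after adding 10 CPM to each level was -0.08 for S100a8 and 0.09 for S100a9, so the direction for S100a8 turned. Ltf cells, with levels of the pair far above all other compared classes, dominated this value. Their own log2 ratios were -0.09 for S100a8 and 0.09 for S100a9. Class by class, measured or not, the S100a8 log2 ratio was above 0 in 8 of 10 classes and below 0 in 2. S100a6 without the Ltf class was at 30.5 CPM in KO-labelled and 14.4 CPM in Control cells (ratio 2.11, 2.01 to 2.22).

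**Figure D1:**
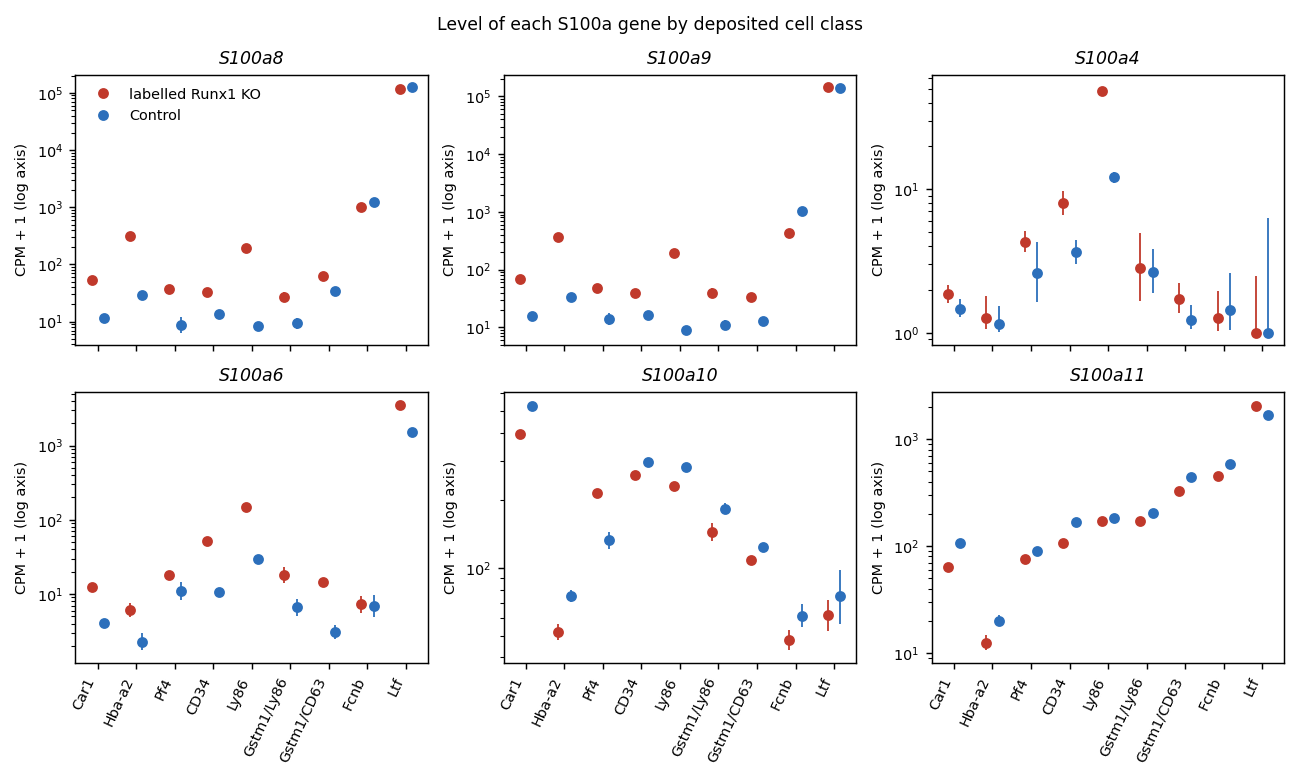
Level of each gene as CPM + 1 on a log axis in 9 classes, with 95% counting intervals, for the library labelled Runx1 KO (red) and Control (blue). Of the classes drawn, S100a8, S100a9, S100a6 and S100a11 are highest in Ltf cells in both libraries, S100a4 in Ly86 cells and S100a10 in Car1 cells.

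The earlier neutrophil progenitors held much less of the pair than Ltf cells. The Fcnb class, named by ficolin B, held the neutrophil progenitor markers at 37716.7 CPM in KO-labelled and 36457.7 CPM in Control cells. S100a8 was at 1015.0 CPM in KO-labelled and 1237.8 CPM in Control Fcnb cells (ratio 0.820, 0.792 to 0.849). S100a9 was at 438 CPM in KO-labelled and 1019.5 CPM in Control Fcnb cells (ratio 0.429, 0.411 to 0.449). Of 4 members measured in this class, 0 were past the fold upward and S100a9 alone downward, where 1.07% and 0.920% of all measured genes were. The Gstm1/CD63 class held the same markers at 23810.9 CPM in KO-labelled and 25855.5 CPM in Control cells. S100a8 was at 62.2 CPM in KO-labelled and 32.9 CPM in Control Gstm1/CD63 cells (ratio 1.89, 1.71 to 2.09), and S100a9 at 32.9 CPM in KO-labelled and 11.7 CPM in Control cells (ratio 2.81, 2.40 to 3.31). Of 4 members measured in that class, S100a8 and S100a9 were past the fold upward and 0 downward, where 1.38% and 0.700% of all measured genes were.

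The Fcnb levels rested on few cells. Of 318 KO-labelled Fcnb cells, 3 had 100 or more S100a9 UMIs and held 78.3% of them, and of 180 Control cells 5 did and held 97.0%. For S100a8, 13 KO-labelled cells held 61.4% of its UMIs and 5 Control cells held 76.7%. Ltf, Camp, Ngp and Lcn2, all late neutrophil genes, had at least 10 UMIs together in 3 KO-labelled and 4 Control cells of this class. Without those cells the S100a9 log2 ratio turned to 0.53, against -1.20 with them. In Fcnb cells with under 20 UMIs of the pair, S100a9 was at 33.8 CPM in KO-labelled and 16.1 CPM in Control cells, and S100a8 at 176 CPM in KO-labelled and 159.5 CPM in Control cells.

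S100a8 was detected in more Fcnb cells than S100a9 in both libraries. At least 1 S100a8 UMI was found in 84.9% of KO-labelled (80.5% to 88.7%) and 80.0% of Control (73.4% to 85.6%) Fcnb cells. S100a9 was found in 55.0% of KO-labelled (49.4% to 60.6%) and 35.0% of Control (28.1% to 42.4%) Fcnb cells. S100a8 without S100a9 was seen in 110 of 318 KO-labelled cells (34.6%) and 86 of 180 Control cells (47.8%), and S100a9 without S100a8 in 4.72% of KO-labelled and 2.78% of Control cells. The erythroid Car1 class was taken as a non-myeloid comparison, and whether its reads of the pair are background was not tested. In Car1 cells the order was the other way round. There S100a8 alone was seen in 19.1% of KO-labelled and 10.7% of Control cells, and S100a9 alone in 27.0% of KO-labelled and 15.4% of Control cells.

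Cells of different depth were set side by side by thinning each cell to 5000 UMIs, which left out 8 KO-labelled and 6 Control Fcnb cells. S100a8 was then found in 57.4% of KO-labelled and 51.1% of Control Fcnb cells, above 15.9% of KO-labelled and 6.01% of Control Car1 cells. Thinned S100a9 was found in 19.7% of KO-labelled Fcnb cells and 20.5% of KO-labelled Car1 cells, no higher in Fcnb than in Car1 cells at this depth. Unthinned, KO-labelled S100a9 was found in 55.0% of Fcnb and 46.7% of Car1 cells, at 438 CPM in Fcnb and 66.7 CPM in Car1 cells. In Control the thinned S100a9 shares were 15.5% of Fcnb cells and 7.44% of Car1 cells. Median depths before thinning were 23662 UMIs in KO-labelled and 26072.5 in Control Fcnb cells, and 14621 in KO-labelled and 15393.5 in Control Car1 cells.

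**Figure D2:**
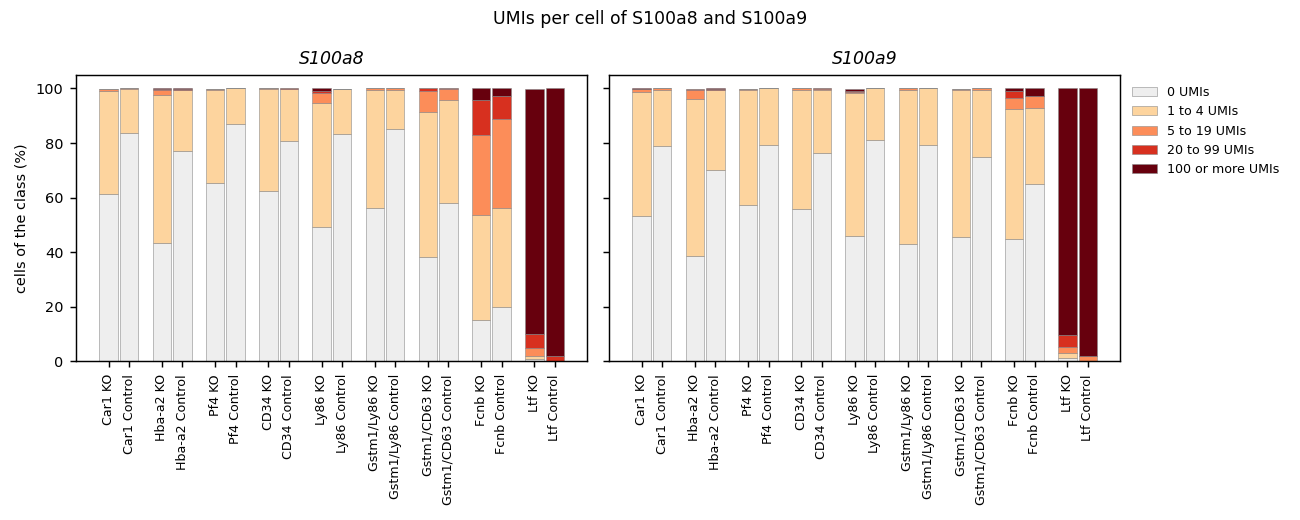
Share of the cells of each class (%, stacked bars) by the number of S100a8 (left) and S100a9 (right) UMIs in a cell, with KO for the library labelled Runx1 KO. Nearly all Ltf cells hold 100 or more UMIs, Fcnb cells spread over all bins for S100a8, and most cells of the other classes hold 0 to 4.

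The calprotectin genes were also read at low levels in every compared class outside the neutrophil line. In Car1 cells S100a8 was at 52.6 CPM in KO-labelled and 10.7 CPM in Control cells (ratio 4.90, 4.45 to 5.41), and S100a9 at 66.7 CPM in KO-labelled and 14.5 CPM in Control cells (ratio 4.61, 4.23 to 5.02). In Pf4 cells, named by platelet factor 4 of megakaryocytes, S100a8 was at 36.4 CPM in KO-labelled and 7.78 CPM in Control cells (ratio 4.68, 3.32 to 6.80). In CD34 cells, named by a surface protein of early progenitors, S100a8 was at 31.5 CPM in KO-labelled and 12.9 CPM in Control cells (ratio 2.44, 2.08 to 2.86). The whole-library S100a8 ratio of 3.65 lies between those of CD34 and Pf4 cells. Late neutrophil markers moved alongside. All 9 had a UMI in Car1 cells of both libraries, summing to 47.4 CPM in KO-labelled and 8.30 CPM in Control cells. In Pf4 cells, with 8 of 9 detected in each library, they summed to 32.5 CPM in KO-labelled and 5.95 CPM in Control cells. The megakaryocyte markers of Pf4 cells summed to 6114.2 CPM in KO-labelled and 6291.5 CPM in Control cells.

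With all cells of a class counted, the S100a8 to S100a9 ratio set 2 neutrophil progenitor classes apart from the others. Ltf cells had 0.812 S100a8 UMIs per S100a9 UMI in the KO-labelled library and 0.921 in Control. Car1 cells had 0.788 in KO-labelled and 0.740 in Control cells, Hba-a2 cells 0.842 in KO-labelled and 0.847 in Control cells, and Ly86 cells 0.975 in KO-labelled and 0.938 in Control cells. All these values lie under 1. The counting interval left out the value of the same library's Ltf cells in Control Car1 cells (0.657 to 0.834) and KO-labelled Ly86 cells (0.925 to 1.03). Pf4 cells had 0.761 in KO-labelled and 0.596 in Control cells, and Gstm1/Ly86 cells 0.669 in KO-labelled and 0.846 in Control cells. Gstm1/CD63 cells stood at 1.89 (1.71 to 2.09) in KO-labelled and 2.81 (2.40 to 3.30) in Control cells, and Fcnb cells at 2.32 (2.23 to 2.42) in KO-labelled and 1.21 (1.17 to 1.26) in Control cells. In both, S100a8 exceeded S100a9. Among cells with under 20 UMIs of the pair, Fcnb cells stood at 5.21 (4.48 to 6.08) in KO-labelled and 9.94 (7.66 to 13.1) in Control cells, so the order of the libraries turned in this class. Gstm1/CD63 cells under that limit stood at 1.63 (1.47 to 1.81) in KO-labelled and 2.73 (2.32 to 3.22) in Control cells. Ly86 cells under it stood at 1.16 (1.02 to 1.32) in KO-labelled cells, above 1, and 0.938 (0.793 to 1.11) in Control cells. Car1, Pf4, CD34, Hba-a2 and Gstm1/Ly86 cells under it stayed below 1 in both libraries. Per UMI of Ltf, Camp, Ngp and Lcn2 together, Ltf cells held 3.31 UMIs of the pair in KO-labelled and 2.85 in Control cells. Car1 cells held 4.35 in KO-labelled and 3.95 in Control cells, and Fcnb cells between 8.48 and 9.56 in KO-labelled and between 7.18 and 8.05 in Control cells (95% intervals). Other classes varied as widely, with 3.35 in KO-labelled and 13.9 (10.6 to 18.4) in Control Hba-a2 cells, and 6.90 in KO-labelled and 1.72 in Control Ly86 cells. The part of free RNA from Ltf cells in the low levels was not tested.

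**Figure D3:**
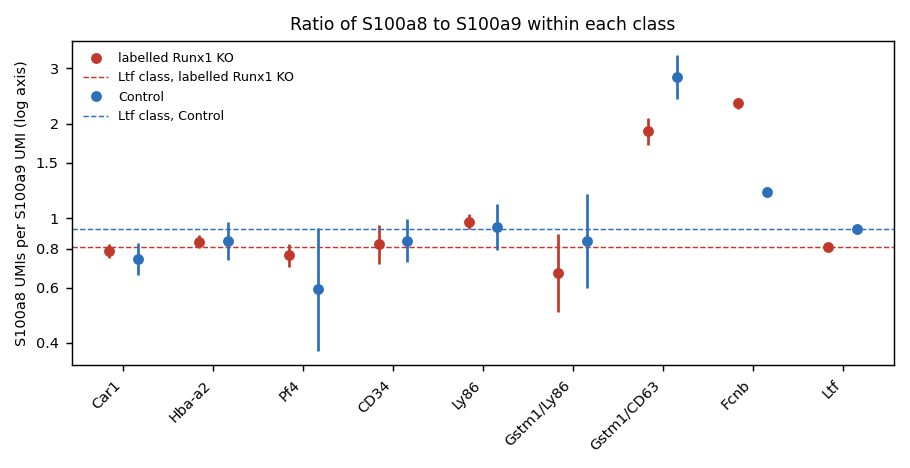
S100a8 UMIs per S100a9 UMI in each class on a log axis, with 95% counting intervals, for the library labelled Runx1 KO (red) and Control (blue), and dashed lines at the value of each library's Ltf cells. Of the 9 classes drawn, Gstm1/CD63 and Fcnb cells alone lie well above 1 in both libraries.

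The Car1 level of each library was also subtracted from the other classes, a step chosen after seeing the data. In Gstm1/CD63 cells this left S100a8 at 9.62 CPM in KO-labelled and 22.2 CPM in Control cells, so the direction turned. Subtracting the same number of UMIs per cell left 30.4 CPM in KO-labelled and 25.4 CPM in Control cells. With only Car1 cells under 20 UMIs of the pair as the level to subtract, 28.0 CPM in KO-labelled and 22.6 CPM in Control cells were left, so in both of these the direction did not turn. S100a9 in Gstm1/CD63 cells lay under the Car1 level in both libraries, at 32.9 CPM against 66.7 CPM in KO-labelled cells and 11.7 CPM against 14.5 CPM in Control cells. Subtracted per cell, -7.49 CPM in KO-labelled and 1.56 CPM in Control cells were left. S100a8 in Fcnb cells stayed far above it, with 962 CPM left in KO-labelled and 1227.1 CPM in Control cells.

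The highest ratios of the pair, in Ly86 and Hba-a2 cells, came from a few cells. The monocyte progenitor markers of the Ly86 class summed to 2150.1 CPM in KO-labelled and 1809.1 CPM in Control cells. S100a8 was at 189.8 CPM in KO-labelled and 7.41 CPM in Control Ly86 cells (ratio 25.6, 22.6 to 29.1), and S100a9 at 195 CPM in KO-labelled and 7.90 CPM in Control cells (ratio 24.6, 21.8 to 27.9). Of 553 KO-labelled Ly86 cells, 9 (1.63%) had 20 or more UMIs of the pair and held 83.1% of them, and 0 of 1326 Control cells did. The remaining Ly86 cells held S100a8 at 35.3 CPM in KO-labelled and 7.41 CPM in Control cells, a ratio of 4.77. In Hba-a2 cells, named by alpha globin of red cells, S100a8 was at 308 CPM in KO-labelled and 28.0 CPM in Control cells (95% interval of the ratio 9.88 to 12.3). There 1 KO-labelled cell held 90.1% of S100a8 UMIs and 1 held 89.7% of S100a9 UMIs. In Control, 1 cell held 62.1% of S100a8 UMIs and 1 held 54.6% of S100a9 UMIs. With 20 or more UMIs of the pair, 2 of 318 KO-labelled cells held 90.7% of the pair and 2 of 294 Control cells held 75.7%. Without them S100a8 was at 27.8 CPM in KO-labelled and 6.39 CPM in Control Hba-a2 cells (ratio 4.35). In Car1 cells, 8 of 3003 KO-labelled cells held 33.6% of the pair, and leaving out such cells in both libraries gave an S100a8 ratio of 3.32 and an S100a9 ratio of 3.23. Whether these were droplets with more than 1 cell was not tested.

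**Figure D4:**
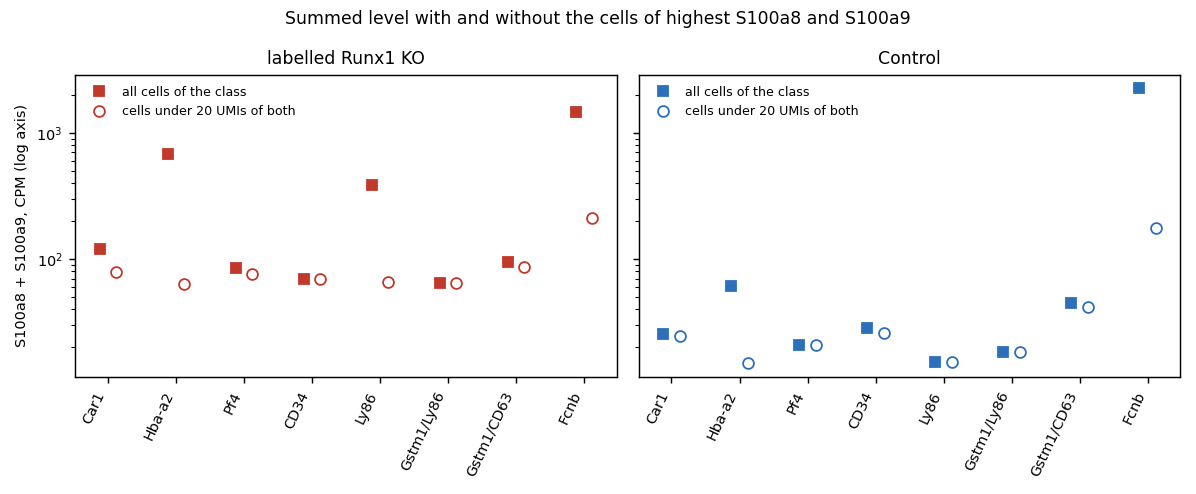
Summed S100a8 and S100a9 CPM (log axis) of 8 classes over all cells (squares) and over cells with under 20 UMIs of the pair (circles), for the library labelled Runx1 KO (left panel) and Control (right panel). In KO-labelled Ly86 cells and in Hba-a2 and Fcnb cells of both libraries the circles lie far under the squares.

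Counted by class, the members past the fold were mostly higher in KO-labelled cells. In Car1 cells 2 of 4 measured members were past it upward and 1 downward, against 3.67% and 1.95% of all measured genes. In Pf4 cells 3 of 4 were upward and 0 downward, against 7.15% and 3.38%, and in CD34 cells 3 of 5 were upward and 1 downward, against 2.85% and 1.37%. In Ly86 cells 4 of 6 were upward and 0 downward, against 2.19% and 0.817%. In Hba-a2 cells 2 of 3 were upward and 0 downward, against 1.80% and 0.751%, and in Gstm1/Ly86 cells 1 of 3 was upward and 0 downward, against 1.63% and 0.628%. In Ltf cells S100a6 alone of 5 was upward and 0 downward, against 5.78% and 6.75%, and in Unannotated cells 1 of 3 was upward and 2 downward, against 7.90% and 7.16%. Over the 10 classes, 41 of 60 member and class pairs were measured, of which 19 were upward and 5 downward. S100a8 and S100a9 made up 13 of the 19 upward pairs, most of them in the low-level classes described above. Both libraries reached 30 CPM only for S100a8 in Gstm1/CD63 cells and S100a9 in Hba-a2 cells. The rest of these 13 counted as measured through the KO-labelled library alone, so they could only lie upward. The same held for S100a6 in Ly86, CD34 and Unannotated cells and for S100a4 in Ly86 cells. In Ly86 cells the rule thus fixed the direction of all 4 upward members. The same rule applied to the shares of all measured genes.

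S100a6, also called calcyclin, was measured in 4 compared classes, Ltf, Ly86, CD34 and Unannotated, and was past the fold upward in all 4. In Ly86, CD34 and Unannotated cells only the KO-labelled level reached 30 CPM. Their direction was thus fixed by the rule for measured genes. In the other 6 classes S100a6 lay under the level to count as measured. In Pf4 cells, 1 of those 6, a UMI was found in 9.93% of KO-labelled and 15.3% of Control cells (4.53% of KO-labelled and 5.37% of Control cells thinned to 5000 UMIs). In Ltf cells it was at 3501.2 CPM (3428.3 to 3575.2) in KO-labelled and 1501.5 CPM (1411.5 to 1595.8) in Control cells, a ratio of 2.33 (2.19 to 2.49). A median Ltf cell held 29 S100a6 UMIs in the KO-labelled library and 6 in Control, and 16 of 221 KO-labelled and 0 of 50 Control cells held 100 or more. The Ltf class supplied 66.8% of all S100a6 UMIs in the KO-labelled library and 30.7% in Control. In Ly86 cells S100a6 was at 149 CPM in KO-labelled and 28.8 CPM in Control cells (ratio 5.17, 4.80 to 5.56). Without the 9 KO-labelled Ly86 cells high in calprotectin it was at 125 CPM in KO-labelled and 28.8 CPM in Control cells (ratio 4.35), so most of this difference lay outside those cells. In CD34 cells it was at 50.1 CPM in KO-labelled and 9.51 CPM in Control cells (ratio 5.27, 4.50 to 6.20). Megakaryocyte markers summed to 544 CPM in KO-labelled and 133 CPM in Control CD34 cells, and basophil and mast cell markers to 980.2 CPM in KO-labelled and 551 CPM in Control CD34 cells. Their part in the CD34 differences of S100a6 and S100a11 was not tested. In Fcnb cells the level was low in both libraries, 6.25 CPM in KO-labelled and 5.94 CPM in Control cells (ratio 1.05, 0.642 to 1.76), and the interval of the ratio spans 1.

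The S100a6 difference in Ly86 cells lay in a subset of cells. Of 553 KO-labelled Ly86 cells, 39 held 20 or more S100a6 UMIs, and of 1326 Control cells 1 did. Of 679 KO-labelled CD34 cells, 25 held 5 or more S100a6 UMIs, and of 1076 Control cells 0 did. Thinned to 5000 UMIs, S100a6 was found in 19.6% of KO-labelled (16.6% to 22.8%) and 5.37% of Control (4.06% to 6.95%) CD34 cells, beside 38.4% of KO-labelled and 15.2% of Control cells unthinned. Thinned shares of Ly86 cells were 22.2% of KO-labelled (18.7% to 25.9%) and 12.1% of Control (10.4% to 14.1%) cells, beside 50.1% of KO-labelled and 38.5% of Control cells unthinned. At equal depth both classes thus held more S100a6-positive cells in the KO-labelled library. Per UMI of the calprotectin pair, Ltf cells held 0.0132 S100a6 UMIs in KO-labelled and 0.00568 in Control cells. CD34 cells held 0.721 in KO-labelled and 0.339 in Control cells, and Car1 cells 0.0963 in KO-labelled and 0.121 in Control cells. In Car1 cells S100a6 was at 11.5 CPM in KO-labelled and 3.05 CPM in Control cells.

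S100a4, known for its part in cell motility, had its highest level among the compared classes in Ly86 cells. It was at 47.1 CPM (43.6 to 50.7) in KO-labelled and 11.1 CPM (10.0 to 12.2) in Control Ly86 cells, a ratio of 4.26 (3.76 to 4.82). The share of Ly86 cells with a UMI was 18.1% in KO-labelled and 17.6% in Control cells, while positive cells held 6.91 UMIs in KO-labelled and 1.75 in Control cells on average. The difference between the libraries thus lay in the UMIs per positive cell, and thinned to 5000 UMIs the shares were 10.7% of KO-labelled and 4.62% of Control cells. Of 553 KO-labelled Ly86 cells, 44 held 5 or more S100a4 UMIs, and of 1326 Control cells 13 did. In the small Cd74 class, named by the invariant chain of antigen-presenting cells, S100a4 was at 952 CPM in 7 KO-labelled cells and 395 CPM in 56 Control cells. The Ccl5 class held it at 1344.8 CPM in 2 KO-labelled cells and 407 CPM in 9 Control cells. These classes were too small to be compared. In Ltf cells it was found in 0 of 221 KO-labelled cells and 0 of 50 Control cells. With a limit of 3 counts, the share of Ltf cells with a UMI is then at most 1.36% in the KO-labelled library and 6.00% in Control. This holds at a median depth of 9352 UMIs in KO-labelled and 11545 in Control Ltf cells and says nothing of expression under that depth. In Car1 cells, 0.899% of KO-labelled and 0.769% of Control cells had an S100a4 UMI.

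S100a6 was detected in a larger share of the Ly86 cells with S100a4 than of those without it, in both libraries. Of 100 KO-labelled Ly86 cells with S100a4, 83.0% also had S100a6, at 664 CPM, and of 453 without S100a4, 42.8% had it, at 45.4 CPM. Of 234 Control Ly86 cells with S100a4, 59.4% had S100a6, at 60.0 CPM, and of 1092 without S100a4, 34.1% had it, at 21.2 CPM. The depth of S100a4-positive and negative cells differed in opposite directions in the 2 libraries. KO-labelled cells had medians of 23081.5 UMIs with S100a4 and 26761 without, and Control cells 30595.5 with S100a4 and 27970 without.

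S100a10, which forms a complex with annexin A2 at membranes, was highest outside the neutrophil classes. Car1 cells held it at 396 CPM (391 to 402) in KO-labelled and 527 CPM (520.3 to 534) in Control cells (ratio 0.752, 0.738 to 0.766). It was found in 95.9% of KO-labelled and 96.8% of Control Car1 cells. In CD34 cells it was at 258 CPM in KO-labelled and 295 CPM in Control cells, and in Fcnb cells at 46.7 CPM in KO-labelled and 60.3 CPM in Control cells. In Ltf cells the ratio was 0.820, with an interval that spans 1 (0.594 to 1.15). S100a10 was lower in KO-labelled cells in 9 of the 10 classes, Ltf among them. The exception was the Pf4 class, at 214 CPM (208 to 219) in KO-labelled and 132 CPM (121 to 143) in Control cells, a ratio of 1.62 (1.48 to 1.77). Whether the Pf4 ratio differs from those of the other classes was not tested. High levels also stood in classes that Control held almost alone, such as 742 CPM in 337 Control cells of the Prss34 class (a protease of basophils), of which the KO-labelled library had 1 cell. In Car1 cells the erythroid markers summed to 1241.9 CPM in KO-labelled and 3638.7 CPM in Control cells, and the megakaryocyte markers to 699 CPM in KO-labelled and 276 CPM in Control cells. Their part in the Car1 differences was not tested.

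S100a11, a partner of annexin A1, had rising levels along the neutrophil classes in both libraries. KO-labelled cells held it at 329.7 CPM in Gstm1/CD63, 450.0 CPM in Fcnb and 2062.8 CPM (2007.0 to 2119.8) in Ltf cells. Control cells held it at 446 CPM in Gstm1/CD63, 590.3 CPM in Fcnb and 1685.6 CPM (1590.1 to 1785.3) in Ltf cells. Of the 10 classes, the Ltf class alone was higher in KO-labelled cells (ratio 1.22, 1.15 to 1.31), and the other 9 were lower. Past the fold downward were 3 classes. Car1 cells had 62.5 CPM in KO-labelled and 106 CPM in Control cells (ratio 0.591, 0.565 to 0.619), and CD34 cells 107 CPM in KO-labelled and 169 CPM in Control cells (ratio 0.636, 0.596 to 0.678). Unannotated cells had 110.0 CPM in KO-labelled and 203 CPM in Control cells (ratio 0.543, 0.457 to 0.645). Cell type markers of the Unannotated class differed between the 2 libraries, with lymphoid markers at 23.7 CPM in KO-labelled and 1855.8 CPM in Control cells and megakaryocyte markers at 1364.8 CPM in KO-labelled and 167 CPM in Control cells. Monocyte progenitor markers stood there at 27.9 CPM in KO-labelled and 385 CPM in Control cells. Their part in the values of this class was not tested. The Ltf class held 21.3% of all S100a11 UMIs in the KO-labelled library and 3.59% in Control, and without it the whole-library ratio was 0.689 (0.677 to 0.701).

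**Figure D5:**
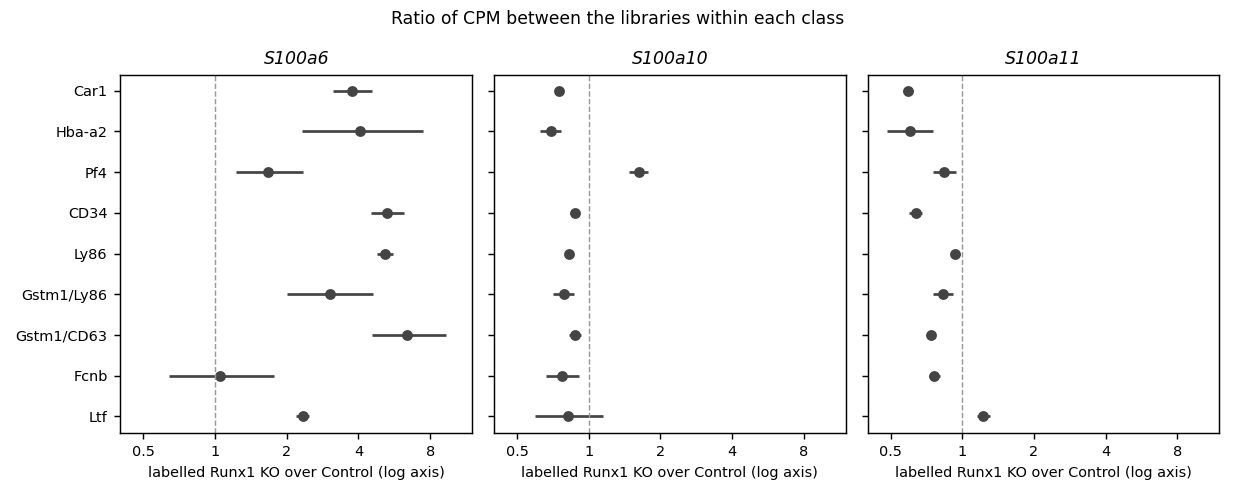
Ratio between CPM of the library labelled Runx1 KO and CPM of Control for S100a6, S100a10 and S100a11 in 9 classes, on a log axis with 95% counting intervals and a dashed line at 1. S100a6 lies above 1 in all 9, with an interval that spans 1 in Fcnb cells, while S100a10 lies above 1 in Pf4 cells alone and S100a11 in Ltf cells alone. The S100a10 interval in Ltf cells also spans 1. Of the classes drawn, S100a6 counted as measured in CD34, Ly86 and Ltf cells alone.

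Likeness between genes was taken over 20 points, the 10 compared classes in each library, as Pearson's r of log2 levels (CPM + 10). S100a8 and S100a9 had an r of 0.993, and S100a8 and S100a10 an r of -0.620. The points share their libraries, so these values describe the 20 points only. The lists that follow leave out the members, predicted or clone-named genes and mitochondrial genes. Among genes with at least 100 CPM in any point, the 5 most like S100a8 were Camp (0.976), Wfdc21 (0.958), Lcn2 (0.957), Mcemp1 (0.953) and Fcnb (0.949). For S100a9 they were Camp (0.985), Ngp (0.962), Lcn2 (0.959), Chil3 (0.957) and Fcnb (0.953). S100a6 ran closest to Slfn2 (0.981), Klf2 (0.963), Gnb2 (0.951), Pirb (0.950) and Lyz2 (0.949), and S100a11 to Csf2ra (0.979), Hmgn2 (0.951), Gng5 (0.950), Ckap4 (0.946) and Lamtor4 (0.942). All genes named so far for S100a8, S100a9, S100a6 and S100a11 had their highest level in Ltf cells. How far these r values rest on the Ltf points was not tested. S100a10 ran closest to Zfp36l2 (0.947), Rhoh (0.889), Tia1 (0.881), Zmiz1 (0.878) and Arid1a (0.877). For S100a4 the values were lower, with Ctsc (0.780), Ccr2 (0.752), Ifi209 (0.712), Ly86 (0.684) and Psap (0.682).

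Of 24 other S100 genes and known partners, 11 were measured in a compared class, 4 of them past the fold upward in some class and 5 downward in some class, and 13 in none. Of all 6389 genes measured in at least 1 compared class, 12.9% were past the fold upward and 11.1% downward in at least 1. Over all cells, 10 were measured, 0 past the fold upward and 1 downward, with a median log2 ratio of 0.20 beside 0.00 for all measured genes. That gene was Emb, encoding embigin, a receptor of S100a8 and S100a9, at 104 CPM in KO-labelled and 232 CPM in Control cells (ratio 0.447). The whole-library value mixes classes of different shares. By class, Emb was past the fold downward in CD34 cells, at 126 CPM in KO-labelled and 279.8 CPM in Control cells, and in Unannotated cells, at 1.05 CPM in KO-labelled and 255 CPM in Control cells. It was past the fold upward in Ltf cells, at 175 CPM in KO-labelled and 109 CPM in Control cells, and past it in neither direction in the other 4 classes where it was measured. Bsg, encoding its relative basigin, a receptor of S100a9, was at 330.0 CPM in KO-labelled and 313 CPM in Control cells. The S100a11 partner Anxa1 was at 143 CPM in KO-labelled and 98.5 CPM in Control cells, and in Fcnb cells at 578 CPM in KO-labelled and 270.1 CPM in Control cells (ratio 2.14). In Unannotated cells Anxa1 was past the fold downward, at 13.2 CPM in KO-labelled and 54.6 CPM in Control cells (ratio 0.241). The S100a10 partner Anxa2 was at 38.6 CPM in KO-labelled and 55.9 CPM in Control cells, and in CD34 cells at 34.9 CPM in KO-labelled and 63.4 CPM in Control cells (ratio 0.552). Cacybp, the S100a6 partner, was at 281 CPM in KO-labelled and 348 CPM in Control cells. Myh9, a myosin bound by S100a4, was at 124 CPM in KO-labelled and 99.9 CPM in Control cells. Of the other S100 genes, S100a1 was at 84.1 CPM in KO-labelled and 55.6 CPM in Control cells and S100a13 at 119.7 CPM in KO-labelled and 93.7 CPM in Control cells. Unlike Emb and Bsg, the receptor genes Tlr4 and Ager, which encodes RAGE, were barely read. Tlr4 had 327 UMIs in KO-labelled and 205 in Control cells, and Ager had 122 in KO-labelled and 123 in Control cells.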

How the data were processed

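The authors deposited a matrix of counts, UMIs per gene and cell, for 14795 LKS- marrow cells and 31053 genes, made with Cell Ranger and mm10 per the submitters' processing notes; the sources used here name no version or setting. The deposited cell annotation holds counts of UMIs and genes, a fraction of UMIs from mitochondrial genes, a size factor (a ratio of UMIs to a constant), library name and class. Its wild type library was taken as Control. The sources used here do not say how classes were assigned. A label field that speaks of embryos was not followed, since tissue and extraction fields name hind limb marrow. Matrix sums matched the annotation in 14795 cells. The lowest number of genes per cell was 1000 and the highest mitochondrial share 76.1%. Cells with 10% or more mitochondrial UMIs made up 4.12% of KO-labelled and 2.74% of Control cells. The libraries shared 13 cell barcodes. No doublet caller was run, and all deposited cells were kept.

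UMIs were summed by class and library with Python 3.11.15, numpy 2.4.6, scipy 1.17.1 and pandas 2.3.3. Intervals are exact: Poisson for CPM, Clopper-Pearson for shares, conditional binomial for ratios. Cells are not replicates, and the spread between mice is unknown. Log2 ratios used a pseudocount of 10 CPM, and the limit for a count of 0 was 3 counts. The ratio step was tested on simulated data. The 6 genes and all lists were chosen with earlier results of these data known. Beside the 6 members, named genes are those of the partner list, the 5 genes most like each member, Ltf, Camp, Ngp and Lcn2, and Runx1. Identifiers were matched to GENCODE M21 on GRCm38 (30934 of 31053), and RefSeq held promoters of 5 members. Alternatives are in the closing section.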

Additional observations from a re-analysis of the deposited data

Results flagged for a closer look

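S100a9 and S100a10 differed between the libraries in opposite directions in different classes, and the difference between classes was not tested, since each genotype has 1 library. The log2 ratio of S100a9, KO-labelled over Control with 10 CPM added, was 1.65 in Car1, 1.33 in Pf4, 3.52 in Ly86, 0.93 in CD34, 0.98 in Gstm1/CD63, 3.12 in Hba-a2 and 1.29 in Gstm1/Ly86 cells, and -1.20 in Fcnb cells. Without cells high in S100a8 and S100a9 UMIs, the S100a9 log2 ratio was 1.18 in Ly86, 1.28 in Hba-a2 and 1.20 in Car1 cells. It was then 1.22 in Pf4, 0.98 in CD34, 1.02 in Gstm1/CD63 and 1.29 in Gstm1/Ly86 cells. In these upward classes other than Hba-a2, only the KO-labelled level was high enough to count as measured. The rule for measured genes thus fixed their direction. In Fcnb cells, 3 of 318 KO-labelled and 5 of 180 Control cells held most S100a9 UMIs. Without 3 KO-labelled and 4 Control cells with at least 10 UMIs of 4 late neutrophil genes, the Fcnb log2 ratio was 0.53, and S100a9 was found in 55.0% of KO-labelled and 35.0% of Control Fcnb cells with all cells kept. The log2 ratio of S100a10 was 0.66 in Pf4 cells and -0.76 in Unannotated cells, of which there were 175 KO-labelled and 143 Control cells. In Unannotated cells lymphoid markers summed to 23.7 CPM in KO-labelled and 1855.8 CPM in Control cells and megakaryocyte markers to 1364.8 CPM in KO-labelled and 167 CPM in Control cells, and their part in the S100a10 ratio was not tested.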

How the results depend on the processing

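Log2 ratios over all cells for S100a8, S100a9, S100a4, S100a6, S100a10 and S100a11, in that order, were 1.85, 2.02, 0.15, 1.70, -0.38 and -0.25. Weighting each compared class equally gave -0.08 for S100a8, which turned its direction, and 0.09, 0.41, 1.22, -0.32 and -0.06 for the others. For S100a8 and S100a9 the Ltf class, with by far the highest levels, dominated these values. Without the Ltf class, an alternative chosen after seeing the data, S100a8, S100a9, S100a6 and S100a11 were at 1.07, 0.92, 0.73 and -0.51. Without cells holding 10 late neutrophil UMIs they were at 1.56, 1.52, 0.79 and -0.49. The mean of each cell's own CPM gave 1.61, 1.77, 2.12, -0.53 and -0.05 for S100a8, S100a9, S100a6, S100a10 and S100a11. A pseudocount of 1 CPM gave 1.87, 2.04, 0.34 and 2.07 for S100a8, S100a9, S100a4 and S100a6. Without the 5% of cells with the most UMIs, S100a8, S100a9 and S100a11 were at 1.78, 1.96 and -0.28. Leaving out cells with 10% mitochondrial UMIs, Unannotated cells, or mitochondrial, S100a8 and S100a9 UMIs from the total moved none of the 6 beyond counting error.

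Within classes, the S100a9 log2 ratio in Fcnb cells turned to 0.53 without cells holding 10 late neutrophil UMIs, and the S100a8 ratio in Gstm1/CD63 cells to -0.71 with the Car1 CPM subtracted, against 0.22 with the CPM of Car1 cells under 20 S100a8 and S100a9 UMIs subtracted. The causes were not tested. That cell filter could not be run for Ltf cells, since too few remained. With classes of at least 200 cells in each library, 2 member and class pairs were past the fold downward, against 5. This rule left out the Fcnb, Gstm1/Ly86, Unannotated and Ltf classes, so fewer pairs were counted. Thinning to 5000 and 10000 UMIs moved 110 and 91 of 120 shares. Fewer UMIs per cell lower most shares by design, so these counts do not speak to the order of the libraries. Subtracting either Car1 level and leaving out cells with 20 or more S100a8 and S100a9 UMIs were also chosen after seeing the data. No paired analysis was possible because each genotype has 1 library.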
